A study of Mus musculus with 16 samples.

Results

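Integrins and laminins were examined in the seminal vesicle (SV) of 5-week-old mice. The members were all genes of the deposited FPKM table whose symbols name an integrin α subunit, an integrin β subunit or a laminin chain. The rule found 37 of 31274 genes, comprising 18 α subunits, 8 β subunits and 11 laminin chains. Expression was given as FPKM, a fragment count scaled by transcript length and by library size, and 36 of the members were among the 15988 genes whose mean passed 1 FPKM in at least 1 group. *Itgad* was the member below that minimum.

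Male C57BL/6 mice in 4 groups of 4 samples each were compared. WT-veh and WT-DES mice had an intact *Esr1* gene, which encodes ERα, the oestrogen receptor α. In αERKO-veh and αERKO-DES mice *Esr1* was disrupted in every tissue, and these mice came from heterozygous parents. The pregnant mothers of the WT mice came from Charles River Laboratories. Genotype and breeding source thus differ together and cannot be told apart in any comparison between genotypes. The DES groups were injected under the skin with the synthetic oestrogen diethylstilbestrol, each pup receiving 2 µg daily from day 1 to day 5, and the veh groups with the corn oil carrier alone. The study's methods name 4 samples per group for sequencing, but for RNA extraction they name individual mice in 3 groups and 3 pools of mice in WT-DES. A WT-DES sample may therefore stand for several animals, and how 3 pools gave 4 samples is not stated, so the 4 WT-DES samples may not be 4 independent replicates in the SDs and tests given here.

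Integrins are receptors made of 1 α and 1 β subunit that hold cells to the matrix or to other cells. The α subunit largely sets the ligand, and some β subunits are used mainly by leukocytes while others serve epithelia or stroma. Laminins are trimers of an α, a β and a γ chain that form the sheet-like base of the basement membrane beneath epithelium and around muscle, vessels and nerves. The laminin that contains α3 and β3 anchors stratified and glandular epithelium through the hemidesmosome integrin α6β4.

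*Esr1* itself ranged over 2.81 to 4.55 FPKM (WT-veh), 8.74 to 19.6 (WT-DES), 1.3 to 1.75 (αERKO-veh) and 0.91 to 1.64 (αERKO-DES), so every αERKO sample lay below every WT sample. The tissue was checked against cell type markers. The summed FPKM of 6 SV secretion genes ranged over 42570.3 to 49986 (WT-veh), 2309 to 7469 (WT-DES), 25001 to 39599.9 (αERKO-veh) and 27611 to 52327 (αERKO-DES), and no marker list had a gene at 0 in all samples. WT-DES replicate 1 stood apart, with 8 smooth muscle markers summing to 3812 FPKM against 848 to 1331 in the other WT-DES samples and 3105 to 3866 in WT-veh.

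Most integrin and laminin genes were higher in WT mice given DES. In WT-DES against WT-veh, 26 of the 36 tested members were called higher and 3 lower, where 52.7% of all tested genes were called in either direction, 28.9% higher and 23.9% lower. Calls required an adjusted p from limma of no more than 0.05, a 1.5-fold or larger ratio between the means, and a mean above 1 FPKM in 1 of the groups compared. The median log2 change of FPKM + 1 was 1.03 over the members and −0.01 over all tested genes. Log2 change rose with transcript length in this comparison (rank correlation 0.26), and the members had a median longest transcript of 5222 nt against 3244 nt. After correction for transcript length, 25 of the 29 called members were still called. The samples of the groups did not overlap for 29 members, where this held for 66.7% of all tested genes. Rescaling to equal totals with the 20 most abundant genes set aside moved the median of all genes to 0.37 and called 30 members higher and 1 lower. All 7 tested leukocyte integrins, 4 of 6 epithelial integrins, 7 of 10 stromal integrins and 7 of 11 laminin chains were called higher, and *Itga3*, *Itga2b* and *Lama1* were called lower. WT-veh or WT-DES samples entered 4 of the 5 pairwise comparisons described here, which are therefore not independent.

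**Figure D1:**
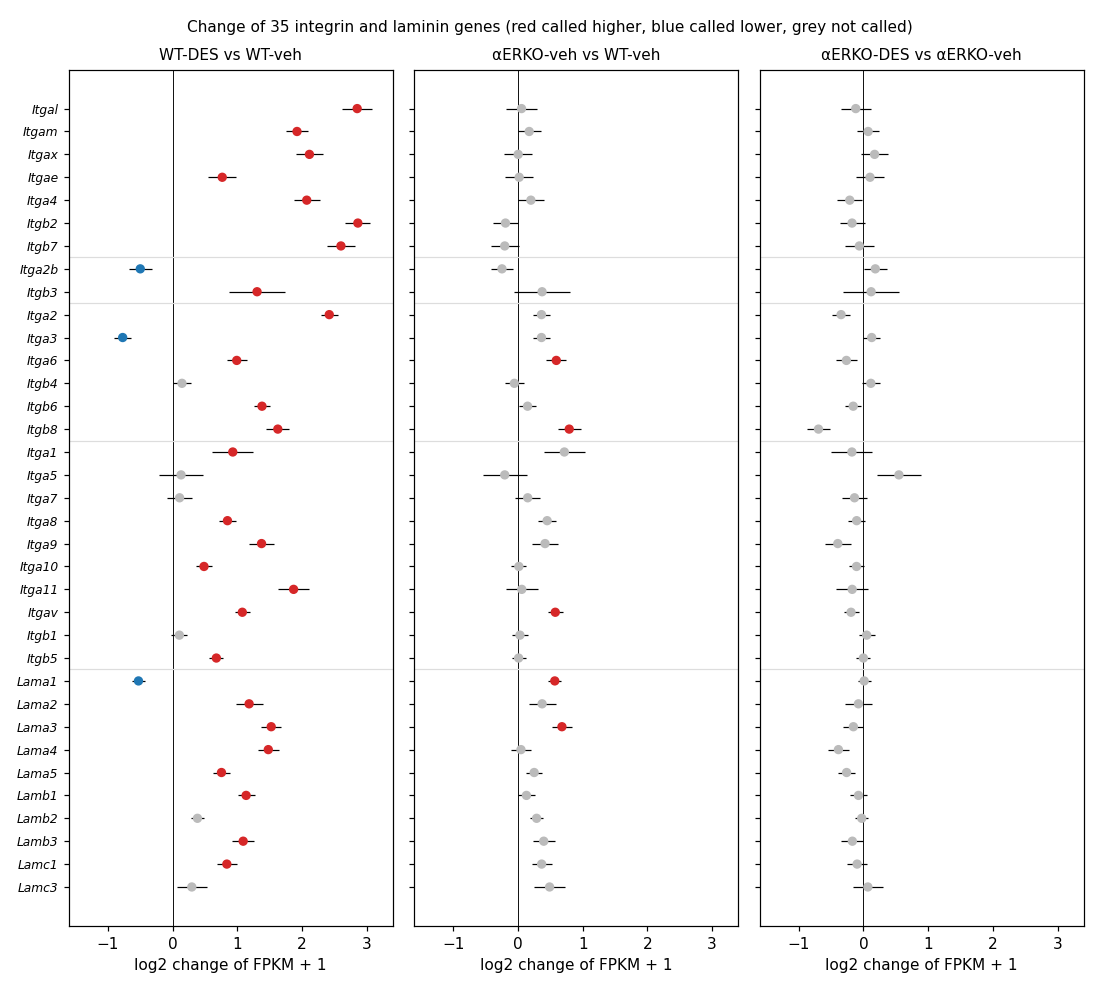
Log2 change of FPKM + 1 (x axis) for 35 of the 36 tested members in 3 comparisons, ordered as leukocyte, platelet, epithelial and stromal integrins and laminins; points are the fitted changes and bars are standard errors. In WT-DES against WT-veh 26 points are red (called higher) and 3 are blue (called lower), in αERKO-veh against WT-veh 5 are red, and in αERKO-DES against αERKO-veh all are grey.

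Promoter sequence was looked up because many members moved together. RefSeq windows of GRCm38.p6 from 250 bases before to 50 after a gene's start matched 23 of the 37 members in 26 windows. The palindromic oestrogen response element, GGTCA followed by any 3 bases and TGACC, was in 0 of the 26 windows and in 0.07% of all 32851 windows. It reads the same on both strands, and its absence says only that these letters are not in these windows. The purine-rich core GAGGAAG, of the type bound by ETS factors such as PU.1, was found on either strand in 8 of the 26 windows, 30.8% of them, and in 13.6% of all windows. Only 4 leukocyte integrins had a window, and 2 of these carried the core. The other members with it were not leukocyte integrins. The lines that follow show the letters around the core in members called higher in WT-DES, limited to the 30-base stretches that end before the RefSeq start, with the core or its complement in capitals. Stretches that reach or pass that start, in *Itgav*, *Itgb7* and a second one in *Itgam*, are not printed. The core was also found in a member called lower, *Itga2b*, starting at −126 and −44, and is not printed either.
Itgam: gttttctcccgGAGGAAGgctacagagggc
Itgb6: ataaggtgaatGAGGAAGtgaacatgttga
Itga11: gagccctcccaCTTCCTCtgcgctgctgtc
Lama2: ttcccttgacaGAGGAAGcacagaacacag
Lamb3: ctgggacttaaGAGGAAGctgacacctact
The *Itgam* stretch is at chr7:128062545-128062574 (plus strand) with the core at −84 from the start, that of *Itgb6* at chr2:60673710-60673739 (minus strand, −35), that of *Itga11* at chr9:62677805-62677834 (plus strand, −39), that of *Lama2* at chr10:27617000-27617029 (minus strand, −76) and that of *Lamb3* at chr1:193301746-193301775 (plus strand, −237). Positions are counted from the RefSeq start, which can differ from the GENCODE M21 gene bounds. By those bounds the stretches of *Itgb6*, *Lama2* and *Lamb3* lie inside the gene, that of *Itga11* runs across the gene's start and that of *Itgam* lies before it. A match describes these letters only and was not tested as a binding site.

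The leukocyte integrins had the largest median change, 2.12 on the log2 scale over 7 tested genes. *Itgb2* encodes β2, the partner of αL, αM, αX and αD. It was at 4.48, 2.33, 2.2 and 2.93 FPKM in the 4 WT-veh samples and 27.1, 33.3, 33.7 and 18.2 in WT-DES, against 1.88 to 2.77 (αERKO-veh) and 1.6 to 2.34 (αERKO-DES). Every WT-DES sample lay above every sample of the other groups, and the mean was 9.41-fold that of WT-veh (log2 change 2.86 ± 0.19, adjusted p = 8.86e-09, limma).

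*Itgal* (αL, the T cell and leukocyte adhesion receptor with β2) measured 1.27, 0.95, 0.62 and 0.68 FPKM in WT-veh and 9.45, 18.1, 19.3 and 7.11 in WT-DES. The ratio of means was 15.3, the largest of the leukocyte integrins (log2 change 2.85 ± 0.23, adjusted p = 5.75e-08, limma). *Itgal* stayed between 0.72 and 1.15 FPKM in all 8 αERKO samples.

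*Itgam* (αM, of macrophages and granulocytes) was 3.82, 3.09, 3.28 and 2.72 FPKM in WT-veh and 24.1, 13.2, 12.1 and 12.9 in WT-DES, a ratio of 4.82 (log2 change 1.92 ± 0.18, adjusted p = 1.75e-07, limma). *Itgax* (αX, of dendritic cells and macrophages) was 1.8, 1.54, 1.15 and 1.09 in WT-veh and 6.09, 14.9, 11.8 and 6.77 in WT-DES, a ratio of 7.1 (log2 change 2.12 ± 0.21, adjusted p = 4.97e-07, limma). For *Itgam* WT-DES replicate 1 was the highest of its group, whereas for *Itgax* replicates 1 and 4 were the lowest.

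*Itgad* (αD) was low throughout, at 0.19, 0.11, 0.15 and 0.05 FPKM in WT-veh and 0.52, 1.04, 0.98 and 0.49 in WT-DES. Its αERKO samples were between 0.07 and 0.22 FPKM. Its WT-DES samples lay above all others, but the gene was below the minimum of the main test. With no minimum on FPKM, its change with DES was called as different between WT and αERKO (interaction 0.61 log2, limma adjusted p = 0.00209). *Itgal*, *Itgam*, *Itgax* and *Itgad* lie on chromosome 7 of GRCm38 (GENCODE M21), the last 3 as neighbours between 128062640 and 128223816, with *Itgal* starting at 127296260.

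β7 and its partners bind mucosal and vascular ligands. *Itgb7* was 2.3, 1.37, 1.24 and 1.71 FPKM in WT-veh and 10.4, 20.4, 18.9 and 12.3 in WT-DES, a ratio of 9.37 (log2 change 2.60 ± 0.22, adjusted p = 8.14e-08, limma). *Itga4* (α4, which pairs with β7 or β1) was 0.94, 0.96, 0.79 and 0.53 in WT-veh and 4.32, 8.24, 9.31 and 5.45 in WT-DES, a ratio of 8.48 (log2 change 2.07 ± 0.20, adjusted p = 2.67e-07, limma). *Itgae* (αE, the receptor by which intraepithelial lymphocytes hold E-cadherin) was 1.64, 1.23, 1.07 and 1.2 in WT-veh and 1.87, 5.85, 3.23 and 1.71 in WT-DES, a ratio of 2.46 (log2 change 0.77 ± 0.22, adjusted p = 0.00501, limma) and no longer called under quantile normalisation (log2 change 0.31, adjusted p = 0.22). This was the smallest rise among the leukocyte integrins.

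Markers of leukocytes moved together with these genes. The summed FPKM of 10 leukocyte markers ranged over 103 to 177 (WT-veh), 518 to 803 (WT-DES), 71.3 to 109 (αERKO-veh) and 59.4 to 88.6 (αERKO-DES), and all 10 markers were called higher in WT-DES. In whole tissue more leukocytes and more RNA per leukocyte cannot be told apart, here or for any class below. Set against *Ptprc*, the pan-leukocyte gene, *Itgal* was 0.345 ± 0.0445 (SD, n = 4) of the *Ptprc* FPKM in WT-veh and 0.409 ± 0.056 in WT-DES. The same ratio was 0.523 ± 0.107 and 0.094 ± 0.0271 for *Itgae*, and 0.558 ± 0.0675 and 0.304 ± 0.0311 for *Itgax*. Relative to *Ptprc*, then, *Itgae* and *Itgax* were lower in every WT-DES sample than in any WT-veh sample, as was the low *Itgad* (0.0282 to 0.0694 in WT-veh and 0.0228 to 0.0239 in WT-DES), while the *Itgal* ranges of 0.287 to 0.384 and 0.33 to 0.462 overlapped. The *Ptprc* ratios of the other 4, *Itgam*, *Itgb2*, *Itgb7* and *Itga4*, overlapped between WT-veh and WT-DES. The partner ratio *Itgae*/*Itgb7* was likewise 0.702 to 0.898 in WT-veh and 0.139 to 0.287 in WT-DES, against 0.732 to 1.91 (αERKO-veh) and 0.878 to 1.52 (αERKO-DES). The other pairs overlapped between the groups, *Itgam*/*Itgb2* at 0.853 to 1.49 and 0.359 to 0.887, *Itgal*/*Itgb2* at 0.232 to 0.408 and 0.348 to 0.573, and *Itga4*/*Itgb7* at 0.31 to 0.701 and 0.404 to 0.492. These ratios are descriptions and were not tested.

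**Figure D2:**
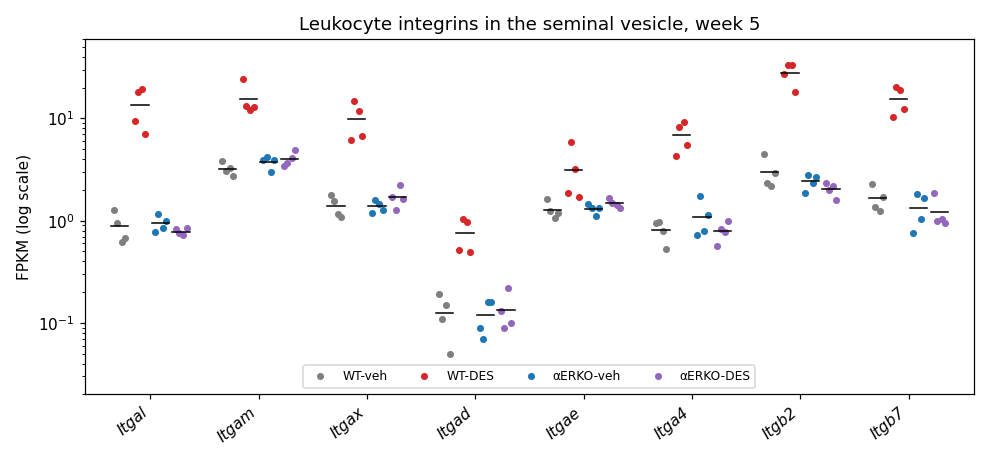
FPKM (log scale) of the 8 leukocyte integrin genes, with 1 point per sample and a line at the mean of each group of 4. The WT-DES samples (red) lie above the samples of all other groups in every gene.

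The subunits of the platelet integrin, αIIb and β3, differed in direction. *Itga2b* (αIIb) was 4.49, 4.67, 5.98 and 4.74 FPKM in WT-veh and 1.99, 4.1, 3.74 and 3.33 in WT-DES, a ratio of 0.662 (log2 change −0.50 ± 0.18, adjusted p = 0.0189, limma), and its call was lost without WT-DES replicate 1 (log2 change −0.33, adjusted p = 0.065) and without WT-veh replicate 3 (log2 change −0.42, adjusted p = 0.0615). It was lost also with equal totals and the 20 most abundant genes set aside (log2 change −0.15, adjusted p = 0.47) and under median-ratio scaling, where the ratio missed the limit (log2 change −0.49, adjusted p = 0.0202). *Itgb3*, which also pairs with αV in vessels, osteoclasts and macrophages, was 2.5, 2.62, 2.21 and 2.76 FPKM in WT-veh and 33.1, 4.3, 4.65 and 4.59 in WT-DES (log2 change 1.31 ± 0.43, adjusted p = 0.0136, limma). The ratio of means was 4.63 with WT-DES replicate 1 and 1.79 without it, when the log2 change was 0.65 (adjusted p = 0.000287, limma), and the call was lost in a model of only the groups compared (adjusted p = 0.0714) and under quantile normalisation (adjusted p = 0.103). The summed FPKM of 6 platelet markers ranged from 10.97 to 25.9 (WT-veh) and from 33.3 to 56.5 (WT-DES), with 3 of 4 tested markers called higher.

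Among the epithelial integrins, *Itga2* (α2, a collagen receptor) had the largest ratio of all members. It measured 0.43, 0.46, 0.31 and 0.28 FPKM in WT-veh and 6.16, 8.52, 5.42 and 5.59 in WT-DES, 17.4-fold higher on average (log2 change 2.42 ± 0.14, adjusted p = 1.76e-09, limma). The αERKO-veh samples were at 0.65, 1.17, 0.63 and 0.64 and the αERKO-DES samples at 0.25, 0.43, 0.36 and 0.51, so the WT-DES samples stood above the 12 others.

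*Itgb6* (β6, the epithelial partner of αV that activates TGFβ) was 1.67, 1.98, 1.63 and 1.85 FPKM in WT-veh and 7.72, 6.49, 4.94 and 6.09 in WT-DES, a ratio of 3.54 (log2 change 1.38 ± 0.13, adjusted p = 1.75e-07, limma). *Itgb8* (β8, another αV partner) was 0.37, 0.74, 0.38 and 0.4 in WT-veh and 2.5, 4.78, 3.42 and 3.68 in WT-DES, a ratio of 7.61 (log2 change 1.63 ± 0.18, adjusted p = 1.27e-06, limma). The αV gene *Itgav*, which many cell types express, was 7.57, 8.62, 6.69 and 6.64 in WT-veh and 17.2, 18.9, 14.7 and 15.9 in WT-DES, a ratio of 2.26 (log2 change 1.08 ± 0.12, adjusted p = 9.52e-07, limma). All 3 genes of the αV pairs rose with no overlap between the groups, and *Itgav*/*Itgb6* ranged from 3.59 to 4.53 (WT-veh) and from 2.23 to 2.98 (WT-DES), against 4.46 to 7.34 (αERKO-veh) and 4.23 to 6.91 (αERKO-DES).

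The hemidesmosome pair moved unequally. *Itga6* was 15.8, 17.2, 14.0 and 12.0 FPKM in WT-veh and 29.9, 36.9, 26.5 and 28.0 in WT-DES, a ratio of 2.05 (log2 change 0.99 ± 0.16, adjusted p = 4.4e-05, limma). *Itgb4* was 38.6, 38.6, 31.6 and 53.2 in WT-veh and 46.5, 44.0, 42.7 and 43.4 in WT-DES, and was not called (log2 change 0.15 ± 0.14, adjusted p = 0.37, limma). The *Itga6*/*Itgb4* ratio ranged from 0.225 to 0.445 (WT-veh) and from 0.619 to 0.838 (WT-DES). It was 0.49 to 0.688 in αERKO-veh, above every WT-veh sample and overlapping WT-DES, and 0.254 to 0.735 in αERKO-DES.

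*Itga3* (α3, a laminin receptor of epithelium) was the epithelial integrin that fell, from 48.7, 44.7, 38.0 and 42.6 FPKM in WT-veh to 35.8, 21.0, 20.2 and 25.6 in WT-DES, a ratio of 0.589 (log2 change −0.77 ± 0.14, adjusted p = 0.000114, limma). The αERKO levels were 53.0, 62.1, 53.5 and 56.0 (αERKO-veh) and 63.6, 58.8, 60.4 and 62.5 (αERKO-DES), each above every WT sample. The fall of *Itga3* was no longer called when the samples were rescaled to equal totals with the 20 most abundant genes set aside (log2 change −0.35, adjusted p = 0.022) or quantile normalised (−0.53, adjusted p = 0.00408), where the ratio no longer reached 1.5. The summed FPKM of 6 luminal epithelial markers ranged from 1459 to 1609.7 (WT-veh) and from 765 to 1062 (WT-DES), and that of 4 basal markers 168 to 245 and 248 to 533. Of these markers 5 of 6 luminal ones were called lower and 2 of 4 basal ones higher, and the part of these shifts in the integrin changes was not tested.

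Stromal integrins rose less evenly. *Itga11* (α11, a collagen receptor of fibroblasts) was 0.52, 0.36, 0.33 and 0.37 FPKM in WT-veh and 8.5, 4.22, 2.74 and 2.63 in WT-DES, a ratio of 11.4 (log2 change 1.87 ± 0.24, adjusted p = 6.43e-06, limma). *Itga9* (α9, a tenascin receptor) was 3.22, 3.65, 2.46 and 3.12 in WT-veh and 16.2, 7.03, 8.3 and 8.84 in WT-DES, a ratio of 3.24 (log2 change 1.38 ± 0.20, adjusted p = 1.87e-05, limma). WT-DES replicate 1 was the highest sample for both, and without it the ratios were 8.09 and 2.59.

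*Itga8* (α8, a nephronectin receptor of mesenchyme) was 3.4, 4.01, 3.06 and 2.58 FPKM in WT-veh and 6.1, 6.78, 7.11 and 6.52 in WT-DES, a ratio of 2.03 (log2 change 0.85 ± 0.14, adjusted p = 4.99e-05, limma). *Itgb5*, an αV partner, was 30.6, 26.7, 27.2 and 30.1 in WT-veh and 58.8, 50.3, 38.6 and 40.3 in WT-DES, a ratio of 1.64 (log2 change 0.68 ± 0.11, adjusted p = 5.38e-05, limma). *Itga10* (α10, a collagen receptor) was 1.74, 1.71, 1.62 and 1.38 in WT-veh and 1.8, 2.94, 2.92 and 3.12 in WT-DES, a ratio of 1.67 (log2 change 0.49 ± 0.12, adjusted p = 0.00164, limma). *Itga10* lost its call after correction for transcript length (log2 change 0.28, adjusted p = 0.0401) and was at −0.003 (adjusted p = 0.984) under quantile normalisation.

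*Itga1* (α1, the collagen receptor of smooth muscle and vessels) was 6.71, 8.84, 6.02 and 5.36 FPKM in WT-veh and 30.6, 9.56, 8.8 and 12.7 in WT-DES (log2 change 0.93 ± 0.32, adjusted p = 0.0155, limma). The groups overlapped, and the ratio of 2.29 became 1.54 without WT-DES replicate 1 (log2 change 0.56, adjusted p = 0.0419, limma). Its call was lost after correction for transcript length (log2 change 0.41, adjusted p = 0.2) and under quantile normalisation (adjusted p = 0.0506). *Itgb1*, the most abundant β subunit and the partner of most matrix-binding α subunits, was 131, 140.5, 132 and 126 in WT-veh and 202, 123, 126 and 131 in WT-DES and was not called (log2 change 0.11 ± 0.12, adjusted p = 0.454, limma). Under quantile normalisation *Itgb1* was called higher in WT-DES (log2 change 0.77, adjusted p = 1.14e-05), lower in αERKO-DES than in WT-DES (−0.66, adjusted p = 4.73e-05) and for the interaction (0.90, adjusted p = 9.23e-05).

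*Itga5* (α5, the fibronectin receptor) and *Itga7* (α7, the laminin receptor of muscle) were not called either. *Itga5* ranged over 16.2 to 26.8 FPKM in WT-veh and 17.1 to 52.6 in WT-DES, and *Itga7* over 9.21 to 12.5 and 8.22 to 16.5. Without WT-DES replicate 1 the log2 changes of *Itga5*, *Itga7* and *Itgb1* were −0.24, −0.05 and −0.06, against 0.13, 0.11 and 0.11 with it, and none of these was called. With equal totals *Itga7* was called higher (log2 change 0.51, adjusted p = 0.0223). The high values of replicate 1 in *Itgb3*, *Itga1*, *Itga5* and *Itgb1* stood beside its high smooth muscle marker sum, and the part of smooth muscle in them was not tested. The summed FPKM of 6 fibroblast markers ranged from 539.9 to 646 (WT-veh) and from 1577 to 1689 (WT-DES), and that of 7 endothelial markers 96.5 to 116 and 171 to 271, and all 13 were called higher. The summed FPKM of 4 adipose markers ranged over 18.6 to 117 (WT-veh), 139.6 to 387 (WT-DES), 5.45 to 166 (αERKO-veh) and 0.58 to 4.63 (αERKO-DES), with all 4 called higher in WT-DES against WT-veh. For 3 Schwann cell markers the ranges were 21.9 to 44.7, 20.6 to 58.9, 23.3 to 55.5 and 7.59 to 17.5, with 2 called higher. The sums of 10 skeletal muscle markers were 579.7 to 2001 in WT-veh and 40.6 to 344 in WT-DES, with 2 called lower. The part of these cell types in the integrin and laminin values was not tested.

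**Figure D3:**
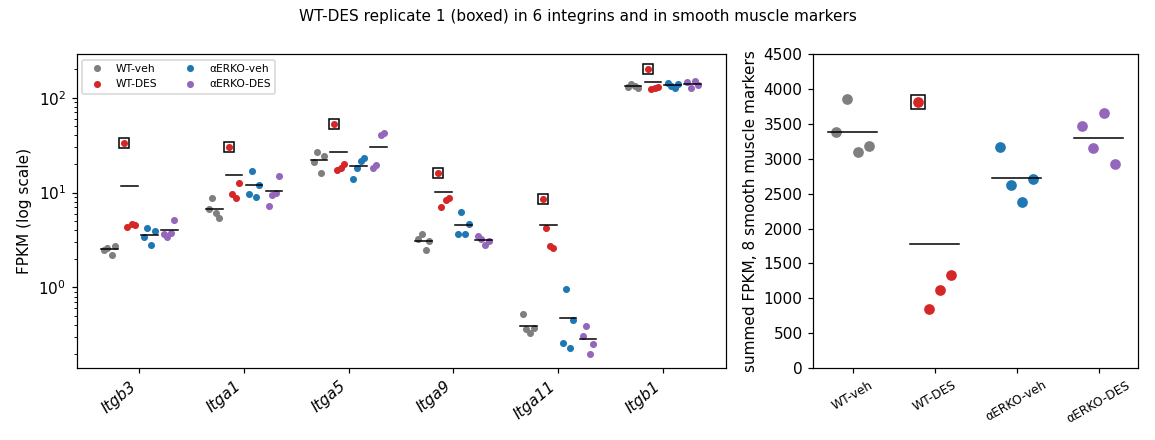
Left, FPKM (log scale) of 6 integrin genes with 1 point per sample, a line at each group mean and WT-DES replicate 1 boxed; right, the summed FPKM of 8 smooth muscle markers per sample. The boxed sample is the highest of all 16 for the 6 genes, and its marker sum of 3812 lies with the WT-veh samples.

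As shares of the summed FPKM of the 8 β subunits, *Itgb1* fell from 62.9 ± 4% (SD, n = 4) in WT-veh to 47.9 ± 4.15% in WT-DES, while *Itgb2* went from 1.41 ± 0.485% to 9.49 ± 2.88% and *Itgb7* from 0.783 ± 0.215% to 5.37 ± 2.1%. The αERKO-DES shares were 63.6 ± 3.38%, 0.914 ± 0.0981% and 0.541 ± 0.16%. The *Itgb2* and *Itgb7* shares of every WT-DES sample were above those of every other sample. These shares describe RNA and were not tested.

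Laminin α chains rose except for *Lama1*. *Lama4* (α4, of vessels and mesenchyme) was 12.7, 11.9, 10.8 and 11.8 FPKM in WT-veh and 35.3, 32.8, 35.1 and 35.0 in WT-DES, a ratio of 2.94 (log2 change 1.48 ± 0.16, adjusted p = 1.07e-06, limma). *Lama3* (α3, of epithelial anchoring) was 4.5, 4.34, 3.45 and 3.22 in WT-veh and 13.1, 18.0, 11.1 and 10.7 in WT-DES, a ratio of 3.41 (log2 change 1.52 ± 0.15, adjusted p = 4.55e-07, limma). *Lama2* (α2, of muscle and nerve basement membranes) was 12.2, 10.3, 8.66 and 8.55 in WT-veh and 15.0, 27.6, 28.9 and 25.7 in WT-DES, a ratio of 2.45 (log2 change 1.18 ± 0.21, adjusted p = 0.000121, limma).

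*Lama5* (α5, of mature epithelium and vessels) was 26.9, 26.1, 21.4 and 23.6 FPKM in WT-veh and 52.4, 42.1, 37.8 and 36.7 in WT-DES, a ratio of 1.73 (log2 change 0.76 ± 0.13, adjusted p = 8.13e-05, limma). *Lama1* (α1, of embryonic and some adult epithelial basement membranes) was 1.49, 1.58, 1.38 and 1.17 in WT-veh and 0.75, 0.68, 0.67 and 0.57 in WT-DES, a ratio of 0.475 (log2 change −0.53 ± 0.10, adjusted p = 0.000193, limma). All αERKO samples were above both WT groups for *Lama1*, at 2.79, 2.74, 2.28 and 2.45 (αERKO-veh) and 2.06, 2.81, 2.66 and 2.88 (αERKO-DES).

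*Lamb1* (β1) was 25.8, 24.0, 20.4 and 20.2 FPKM in WT-veh and 45.0, 54.9, 49.0 and 54.1 in WT-DES, a ratio of 2.25 (log2 change 1.14 ± 0.13, adjusted p = 2.09e-06, limma). *Lamb3* (β3, found with α3) was 8.77, 8.54, 7.43 and 8.14 in WT-veh and 27.3, 22.4, 14.1 and 13.8 in WT-DES, a ratio of 2.36 (log2 change 1.09 ± 0.17, adjusted p = 4.06e-05, limma). *Lamc1* (γ1, the γ chain of most trimers) was 37.5, 39.7, 29.8 and 31.1 in WT-veh and 57.7, 59.0, 69.4 and 62.9 in WT-DES, a ratio of 1.8 (log2 change 0.84 ± 0.15, adjusted p = 0.000181, limma). After correction for transcript length, *Lama5* (log2 change 0.22, adjusted p = 0.106) and *Lamc1* (0.43, adjusted p = 0.00181) were not called.

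*Lamb2* and *Lamc3* were not called. *Lamb2* (β2, of muscle and vessel basement membranes) was 35.6 to 46.7 FPKM in WT-veh and 51.0 to 55.3 in WT-DES, a ratio of 1.31 that missed the 1.5-fold limit at an adjusted p of 0.00375 (limma). It was called higher with equal totals and the 20 most abundant genes set aside (log2 change 0.81, adjusted p = 4.31e-05) and under quantile normalisation (0.82, adjusted p = 2.85e-05). *Lamc3* (γ3) was 9.04, 8.9, 6.96 and 7.88 FPKM in WT-veh and 4.71, 13.8, 13.4 and 12.1 in WT-DES (log2 change 0.30 ± 0.23, adjusted p = 0.263, limma), and without WT-DES replicate 1 its log2 change was 0.62 (adjusted p = 0.000278), which passed the rule, as it did with equal totals (0.69, adjusted p = 0.0301).

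Laminin composition shifted in shares of summed FPKM. *Lama4* made up 23.0 ± 1.22% (SD, n = 4) of the α chains in WT-veh, 30.1 ± 2.17% in WT-DES and 16.7 ± 1.23% in αERKO-DES. *Lama5* made up 47.6 ± 1.07%, 36.7 ± 5.56% and 44.7 ± 5.49% in the same groups. *Lama1* was a small part, at 2.74 ± 0.281%, 0.58 ± 0.0505% and 4.78 ± 0.63%. Among β chains *Lamb2* held 55.2 to 59.0% in WT-veh and 40.8 to 46.7% in WT-DES, where *Lamb1* was 29.3 to 33.0% and 36.5 to 44.5%. *Lama3*/*Lamb3* ranged from 0.396 to 0.513 (WT-veh) and from 0.479 to 0.803 (WT-DES). This pair overlapped between the groups, as did *Lama2*/*Lamb1* and *Lama5*/*Lamc1*.

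**Figure D4:**
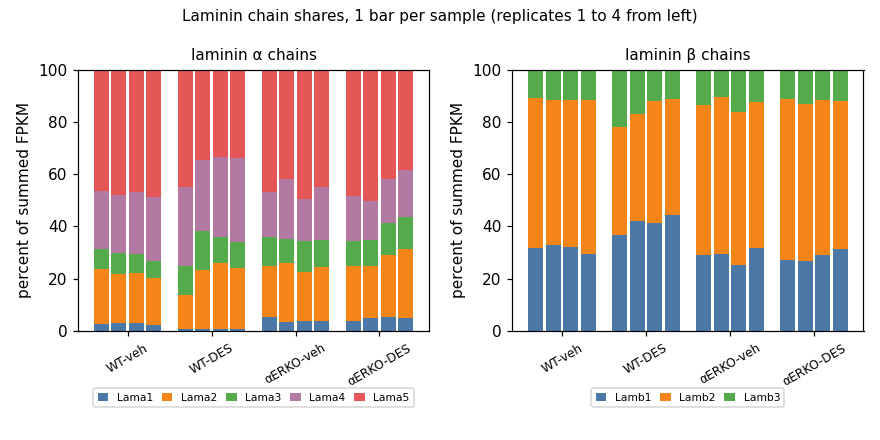
Share of each laminin α and β chain (y axis, percent of the summed FPKM of that chain type) in each of the 16 samples, with replicates 1 to 4 from left within each group. Among the α chains *Lama4* is at 27.1% to 32.2% in WT-DES against 21.9% to 24.4% in WT-veh, and among the β chains *Lamb2* is at 40.8% to 46.7% in WT-DES against 55.2% to 59.0% in WT-veh.

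Fewer members differed between the genotypes without DES. In αERKO-veh against WT-veh, 6 of 36 tested members were called higher and none lower, where 7.12% of all tested genes were called in either direction, 4.5% higher and 2.63% lower. These were 1139 genes, and between 418 (without αERKO-veh replicate 2) and 1691 (without αERKO-veh replicate 1) when single samples were left out. The groups did not overlap for 12 members, where this held for 29.7% of all tested genes. *Itgb8* was at 0.94, 2.32, 1.36 and 1.72 FPKM in αERKO-veh, 3.35-fold the WT-veh mean (log2 change 0.79 ± 0.18, adjusted p = 0.00994, limma), and *Itgav* at 9.99, 13.5, 11.5 and 10.97, 1.56-fold (log2 change 0.58 ± 0.12, adjusted p = 0.00721, limma). *Itga6* was at 18.9, 25.9, 21.6 and 24.4, 1.54-fold (log2 change 0.59 ± 0.16, adjusted p = 0.0164, limma). These were epithelial or widely expressed receptors, and no leukocyte integrin was called.

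Laminin chains were also called. *Lama1*, given above for every sample, was 1.83-fold higher in αERKO-veh (log2 change 0.57 ± 0.10, adjusted p = 0.00499, limma). *Lama3* was at 5.65, 7.34, 7.09 and 7.07 FPKM, 1.75-fold higher (log2 change 0.68 ± 0.15, adjusted p = 0.00965, limma). Its partner *Lamb3*, at 9.8, 10.7, 13.0 and 11.2 FPKM, was not called (log2 change 0.40 ± 0.17, adjusted p = 0.0997, limma).

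Transcript length moved with every comparison, and most with this one. Over 15049 genes of known length, which are not independent replicates, the rank correlation of log2 change with transcript length was 0.55 here. It was 0.26 in WT-DES against WT-veh and −0.32 in αERKO-DES against αERKO-veh. For αERKO-DES it was −0.14 against WT-DES and 0.40 against WT-veh, and it was 0.27 for the interaction. The members were long, with a median longest transcript of 5222 nt against 3244 nt over tested genes. After each sample's trend on length was removed, 1 of the 6 members, *Itgb8*, was still called, and the log2 changes were then 0.24 for *Lama1*, 0.32 for *Lama3*, 0.33 for *Itgav* and 0.53 for *Itga6*. αERKO-veh replicate 2 was the highest of its group for 27 of the 37 members, and without it *Itga6* (log2 change 0.53, adjusted p = 0.0606) and *Itgav* (0.50, adjusted p = 0.0288, with a ratio under 1.5) were not called. *Itga6* was also lost without WT-veh replicate 4 (0.50, adjusted p = 0.0544). The fibroblast marker sum of αERKO-veh replicate 2, 727 FPKM, was the highest of its group. So were its endothelial, adipose and Schwann cell sums, at 162, 166 and 55.5 FPKM against 104.5 to 119.6, 5.45 to 51.0 and 23.3 to 32.9 in the other αERKO-veh samples. In αERKO-veh against WT-veh, 2 of 7 endothelial and 4 of 10 skeletal muscle markers were called higher and none of the fibroblast, adipose and Schwann cell markers, and the part of these cell types in these values was not tested. *Itga1* passed the rule without WT-DES replicate 1 (log2 change 0.72, adjusted p = 0.0231), and *Itga8* without any of 4 single samples.

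Few genes of any kind passed the rule for DES in mice without ERα, and no integrin or laminin gene did. In αERKO-DES against αERKO-veh, 0 of 36 tested members were called by limma, where 1.49% of all tested genes were, 0.0876% higher and 1.41% lower, and 3 members had an unadjusted p under 0.05. These were *Itgb8*, *Itga2* and *Lama4*, all lower in αERKO-DES. The number of all genes called in this comparison, 239, ranged from 1 (without αERKO-veh replicate 4) to 653 (without αERKO-veh replicate 1) when single samples were left out. Over the 10 other settings it ranged from 5 (quantile normalisation) to 1119 (sample weights), and was 6 in a model of only the groups compared. *Itgb8* was at 0.28, 0.61, 0.58 and 0.85 FPKM in αERKO-DES, against the αERKO-veh levels given above, with no overlap between the groups and a ratio of 0.366 (log2 change −0.69 ± 0.18, adjusted p = 0.0515, limma), just outside the limit. It was called under 4 of the 10 other settings and when any of 4 single samples was left out. *Itga2* had a ratio of 0.502 (log2 change −0.35 ± 0.14, adjusted p = 0.137, limma) and *Lama4* one of 0.72 (log2 change −0.39 ± 0.16, adjusted p = 0.156, limma). The groups did not overlap for 3 members, where this held for 13.0% of all tested genes.

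Set against WT-veh, αERKO-DES had 3 members called higher and none lower, where 3.18% of all tested genes were called, 1.21% higher and 1.97% lower. With single samples left out, all genes called ranged from 199 (without αERKO-DES replicate 3) to 883 (without αERKO-DES replicate 1), against 508 with every sample. Among them were *Lama1* (1.85-fold, log2 change 0.58 ± 0.10, adjusted p = 0.00434, limma) and *Lama3* (1.55-fold, log2 change 0.52 ± 0.15, adjusted p = 0.0487, limma). The groups did not overlap for 7 members, where this held for 21.0% of all tested genes. The *Lama3* call was lost when any of 12 single samples was left out. It was lost also with no minimum on FPKM, a replicate block, quantile normalisation and equal totals. Correction for transcript length ended it too (log2 change 0.34, limma adjusted p = 0.098). *Lama3* was at 4.88, 5.77, 6.01 and 7.43 FPKM in αERKO-DES. Both genes were also called in αERKO-veh, a comparison with the same WT-veh samples. In αERKO-DES against WT-veh, 3 of 4 adipose, 2 of 6 fibroblast, 1 of 10 leukocyte and 1 of 4 tested platelet markers were called lower. No marker was called higher, and the part of these cell types in the member values was not tested.

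With DES in both genotypes, ERα loss went with lower levels of most members. In αERKO-DES against WT-DES, 23 of 36 tested members were called lower and 2 higher, where 53.4% of all tested genes were called in either direction, 29.6% lower and 23.7% higher. The groups did not overlap for 25 members, against 66.5% of all tested genes. All 7 tested leukocyte integrins were lower, with ratios of 0.058 for *Itgal*, 0.0721 for *Itgb2* and 0.0781 for *Itgb7* at one end and 0.466 for *Itgae* at the other. Cell type markers moved with this comparison too. All 10 leukocyte and 6 fibroblast markers and 6 of 7 endothelial markers were called lower in αERKO-DES, as were 3 of 4 basal epithelial, 4 of 4 adipose, 3 of 3 Schwann cell and 4 of 4 tested platelet markers, while 5 of 6 luminal epithelial and 5 of 8 smooth muscle markers were called higher. The fibroblast sum was 379.7 to 459 FPKM in αERKO-DES and the endothelial sum 98.9 to 112, against the WT-DES ranges given above, and the part of these cell types in the member values was not tested. The members called higher were *Itga3* (2.39-fold, log2 change 1.26 ± 0.14, adjusted p = 7.58e-07, limma) and *Lama1* (3.9-fold, log2 change 1.11 ± 0.10, adjusted p = 9.89e-08, limma). *Itga8* (log2 change −0.50 ± 0.14, adjusted p = 0.00373, limma) lost its call under 3 of the 10 other settings and without any of 5 single samples, and *Itgae* (log2 change −0.65 ± 0.22, adjusted p = 0.014, limma) lost it in a model of only the groups compared (adjusted p = 0.065) and under quantile normalisation (adjusted p = 0.887). *Itga6* was not called without WT-DES replicate 2 or αERKO-DES replicate 1 (log2 changes −0.57 and −0.53), nor *Itgb5* without WT-DES replicate 1 (−0.56). The calls of *Itgav* (log2 change −0.45, adjusted p = 0.000121) and *Lama5* (−0.42, adjusted p = 0.00507) were lost after correction for transcript length, where the ratio missed 1.5-fold. *Lamc1* missed the 1.5-fold limit, at a ratio of 0.673 (limma adjusted p = 0.00375), and was called without any of 3 single samples, with equal totals and under quantile normalisation.

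The change with DES differed between genotypes for most members. The interaction subtracted the αERKO change with DES from the WT change. It was called for 26 of 36 tested members, 24 above 0 and 2 below, where 56.4% of all tested genes were called, 29.6% above 0 and 26.9% below. It was called for 6 of 7 leukocyte integrins, *Itgae* being the exception (0.67 ± 0.31 log2, limma adjusted p = 0.0636), 5 of 6 epithelial integrins, 7 of 10 stromal integrins and 7 of 11 laminin chains. Without WT-DES replicate 1 or 4 *Itgae* was called too (0.81 and 0.84), as it was with equal totals (1.04) and with sample weights (0.80). The 2 below 0 were *Itga3* (log2 change −0.90 ± 0.19, adjusted p = 0.000701, limma) and *Itga2b* (log2 change −0.68 ± 0.25, adjusted p = 0.0234, limma), the latter lost without any of 4 single samples. The *Itga3* interaction was lost with equal totals (−0.35, adjusted p = 0.0954) and under quantile normalisation (−0.53, adjusted p = 0.0347), and that of *Itga2b* with equal totals (−0.23, adjusted p = 0.444). *Lama1* was not called here, at −0.54 ± 0.14 log2 (limma adjusted p = 0.00291), but was called below 0 under 4 of the other settings, at −1.18 after correction for transcript length, −1.15 under quantile normalisation, −0.98 with a pseudocount of 0.1 and −0.65 with sample weights, and without either of 2 single samples. Length correction ended the interaction calls of *Lama5* (0.30, adjusted p = 0.129), *Lamc1* (0.40, adjusted p = 0.0271), *Itga8* (0.58, adjusted p = 0.00354), *Itga1* (0.41, adjusted p = 0.37) and *Itga10* (0.33, adjusted p = 0.0841). Quantile normalisation ended those of *Itga8* (0.47, adjusted p = 0.0352) and *Itga1* (0.94, adjusted p = 0.101). The interactions of *Itga1* and *Itga10* were the least stable, lost when any of 8 and any of 9 single samples was left out, and that of *Itgb5* was lost without WT-DES replicate 1 (log2 value 0.57) and with sample weights (0.47, adjusted p = 0.00136).

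**Figure D5:**
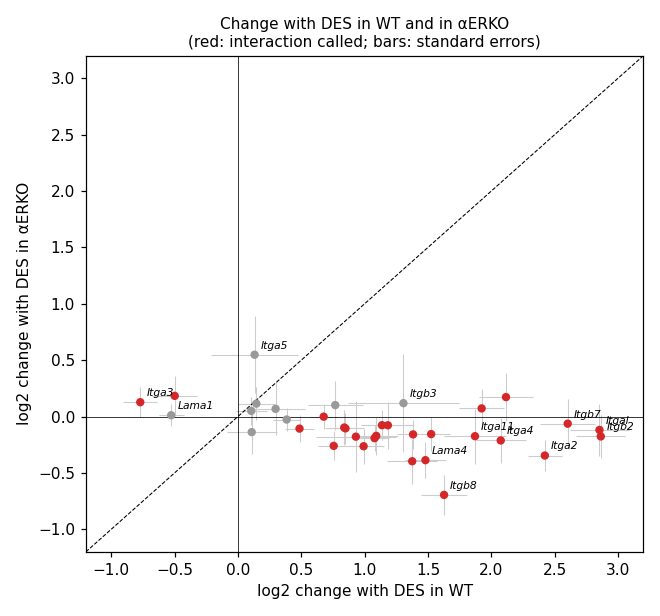
Log2 change of FPKM + 1 with DES in WT (x axis) and in αERKO (y axis) for 35 of the 36 tested members, with standard errors as bars and red points where the interaction was called. Red points with positive x values lie to the right of the dashed line of equal change, as for *Itgb2* at 2.86 in WT and −0.18 in αERKO.

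Other genes of the same pathways were counted from lists of adhesion machinery, basement membrane partners and integrin ligands. Of 28 genes of the adhesion machinery that links integrins to actin, 8 were called higher and 2 lower in WT-DES against WT-veh, at a median log2 change of 0.12. These 35.7% called compare with 52.7% of all tested genes, of which 28.9% were called higher and 23.9% lower. *Apbb1ip* (RIAM, which recruits talin to leukocyte integrins) had a mean of 1.49 ± 0.29 FPKM (SD, n = 4) in WT-veh and 10.6 ± 2.08 in WT-DES, and *Parvg* (γ-parvin of blood cells) 1.44 ± 0.166 and 7.66 ± 2.92. *Rap1a*, a GTPase that activates integrins, fell from 25.0 ± 1.65 to 13.9 ± 1.39, and *Sharpin*, an integrin inhibitor, from 43.0 ± 0.859 to 27.8 ± 1.46. The calls of *Rap1a* and *Sharpin* held under 9 and 7 of the 10 other settings. *Fermt3* and *Fermt1*, singled out after their values were seen, encode the kindlins of blood cells and of epithelium and had ratios of 4.35 and 3.64.

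Of 24 basement membrane partners, 12 were called higher in WT-DES and none lower, where 28.9% of all tested genes were called higher and 23.9% lower, at a median log2 change of 0.63. *Col17a1*, the hemidesmosome collagen, had a ratio of 3.18 (log2 change 1.47 ± 0.19, adjusted p = 5.81e-06, limma) and *Nid2*, a nidogen that joins laminin to collagen IV, one of 3.04 (log2 change 1.37 ± 0.23, adjusted p = 8.49e-05, limma). Of 21 tested integrin ligands, 15 were called higher and none lower, at a median log2 change of 1.26 and against the same 28.9% and 23.9% of all tested genes. *Vcam1*, the vascular ligand of α4 integrins, was 3.41, 3.26, 3.21 and 3.71 FPKM in WT-veh and 29.2, 39.0, 37.5 and 22.9 in WT-DES, a ratio of 9.46 (log2 change 2.88 ± 0.18, adjusted p = 5.32e-09, limma). *Spp1* (osteopontin) was 0.27, 0.38, 0.45 and 0.82 in WT-veh and 39.8, 16.4, 2.1 and 7.8 in WT-DES, so that its ratio of 34.4 rested on widely spread WT-DES samples (log2 change 3.01 ± 0.52, adjusted p = 9.18e-05, limma).

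In the comparisons without WT-DES few genes of these lists, and few of all genes, were called. In αERKO-veh against WT-veh, 0 of 28 adhesion machinery genes, 2 of 24 basement membrane partners and 1 of 21 ligands were called by limma, where 7.12% of all tested genes were. In αERKO-DES against αERKO-veh the counts were 1, 0 and 3 against 1.49% of all tested genes, and in αERKO-DES against WT-veh 1 (*Fyn*, lower), 1 (*Ntn4*, higher) and 0 against 3.18%. Where no gene of a list was called, 8 adhesion machinery genes, 2 basement membrane partners and 4 ligands had an unadjusted p under 0.05 in these comparisons respectively. In αERKO-veh, *Ntn4* and *Col4a6* of the basement membrane list (1.73-fold and 1.84-fold) and the ligand *Ltbp1* (1.51-fold) were called higher than in WT-veh. The *Ntn4* call held when each of the 16 samples was left out in turn, whereas *Col4a6* and *Ltbp1* lost theirs in 4 and 6 of these cases. The αERKO-DES calls against WT-veh were lost in 10 of the 16 cases for *Fyn* (adjusted p up to 0.13) and in 5 for *Ntn4* (adjusted p up to 0.0911). In αERKO-DES, *Vcam1*, *Ltbp1* and *Jam2* were called lower than in αERKO-veh, with ratios of 0.497, 0.56 and 0.635 (limma adjusted p = 0.0424, 0.0407 and 0.0495). These calls were lost in 10, 11 and 12 of the 16 cases in which a single sample was left out, with adjusted p up to 0.161, 0.15 and 0.15. *Itgb1bp2* (melusin, a muscle partner of β1), named after its values were seen, was 0.75, 5.58, 7.82 and 4.63 FPKM (αERKO-veh) and 0.04, 0.13, 0.31 and 0.12 (αERKO-DES), and its call was lost in 13 of these 16 cases. Skeletal muscle markers summed to 611 to 2423 FPKM (αERKO-veh) and 479 to 680.4 (αERKO-DES), with 8 of 10 called lower, and their part in the *Itgb1bp2* value was not tested.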

How the data were processed

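RNA-seq of SVs was deposited as 1 table of FPKM values for 31274 genes in 16 samples, 4 per group. The authors filtered paired-end reads for quality, mapped them to mm10 with TopHat2 2.0.4 and computed the deposited FPKM with Cufflinks 2.0.2; the annotation behind the table is not given in the sources used here. Counts were not used, and the depth of each sample is not stated. Among 1093 olfactory receptor genes, 21 to 61 were above 0 in a sample. Their commonest low FPKM, sought only among the lowest values above 0, was 0.05 or 0.06 in every sample, which does not give the depth. Summed FPKM ranged over 590446 to 652708 (WT-veh), 375207 to 437619 (WT-DES), 479045 to 558591 (αERKO-veh) and 531467 to 622477 (αERKO-DES). No 2 samples held identical values, and p-values measure the spread between samples.

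All genes with a mean FPKM above 1 in a group were tested as log2(FPKM + 1) in 1 limma 3.58.1 model (R 4.3.3) of a mean per group over all 16 samples, using eBayes with trend and, within each comparison, p-values adjusted by Benjamini-Hochberg across all 15988 genes. Log2 changes are on the scale of FPKM + 1, which understates changes of low genes, and are given ± standard error. The call thresholds are those given in the results, and the interaction was called at the same adjusted p and a 1.5-fold difference. The steps were tested on simulated data.

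Values of 1 member are not reported here, although it is in the counts. Other members called in WT-DES against WT-veh or in a comparison without WT-DES are given by sample, and of each pathway list the called genes with the 2 largest rises and 2 largest falls among those with a mean of at least 5 FPKM. The members, lists and rules were chosen with earlier results of these data known. Coordinates and transcript lengths are from GENCODE M21 and promoters from RefSeq (GRCm38.p6). Alternatives were a pseudocount of 0.1, no minimum or a minimum of 5 FPKM, a model of only the groups compared, sample weights, a replicate block, median-ratio, quantile and equal-total scaling (with the 20 most abundant genes set aside), a lowess correction for transcript length (span 0.3), and leaving out each sample. Ratios and shares under quantile and length settings, and the calls of pathway genes under every setting, were added after seeing the data. Python 3.11.15, pandas 2.3.3 and matplotlib 3.10.9 were used.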

Additional observations from a re-analysis of the deposited data

Results flagged for a closer look

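In each group of 4 the highest and lowest samples were checked against their neighbours by Dixon's test at the 95% level. Of 148 checks of a member in a group, 13 passed, where chance gives about 1 in 20. WT-DES replicate 1 had 5 of these, at 52.65 FPKM for *Itga5*, 24.07 for *Itgam*, 202.46 for *Itgb1*, 33.14 for *Itgb3* and, on the low side, 1.8 for *Itga10*. The summed smooth muscle markers of this sample were 3812 FPKM against 848 to 1331 in the other WT-DES samples, and the part of smooth muscle in these values was not tested. Other samples that stood apart were WT-DES replicate 2 for *Lama4* (32.82), WT-veh replicate 2 for *Itgb8* (0.74) and replicate 3 for *Itga2b* (5.98). In αERKO-veh they were replicate 1 for *Lama3* (5.65, low) and replicate 2 for *Itga2* (1.17). In αERKO-DES they were replicate 1 for *Itgb7* (1.88), replicate 2 for *Itga10* (1.66) and replicate 4 for *Lama2* (16.17).

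The change with DES differed between WT and αERKO, by a test of the difference itself, for 26 members. The values are the log2 change with DES in WT less the αERKO one, at limma adjusted p from 3.43e-08 to 0.0375. For the leukocyte integrins it was 3.04 for *Itgb2*, 2.97 for *Itgal*, 2.67 for *Itgb7*, 2.29 for *Itga4*, 1.94 for *Itgax* and 1.85 for *Itgam*. For the epithelial integrins it was 2.77 for *Itga2*, 2.32 for *Itgb8*, 1.54 for *Itgb6*, 1.26 for *Itga6* and −0.90 for *Itga3*. Stromal integrins gave 2.04 for *Itga11*, 1.77 for *Itga9*, 1.27 for *Itgav*, 1.11 for *Itga1*, 0.95 for *Itga8*, 0.68 for *Itgb5* and 0.59 for *Itga10*, and the platelet integrin *Itga2b* gave −0.68. Laminin chains gave 1.87 for *Lama4*, 1.68 for *Lama3*, 1.26 for *Lama2*, 1.02 for *Lama5*, 1.21 for *Lamb1*, 1.26 for *Lamb3* and 0.94 for *Lamc1*. Those of *Itga1*, *Itga8*, *Itga10*, *Lama5* and *Lamc1* were not called after correction for transcript length.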

How the results depend on the processing

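Across 10 alternative settings and the leaving out of each of 16 samples, 21 of the 29 members called in WT-DES against WT-veh were called in every setting that gave a value, as were 18 of 25 in αERKO-DES against WT-DES, 18 of 26 for the interaction, 1 of 6 in αERKO-veh against WT-veh and 2 of 3 in αERKO-DES against WT-veh. Leaving out single samples gave 28 to 30 members in WT-DES against WT-veh, 4 to 7 in αERKO-veh against WT-veh, 0 to 1 in αERKO-DES against αERKO-veh, 23 to 27 in αERKO-DES against WT-DES, 2 to 5 in αERKO-DES against WT-veh and 24 to 26 for the interaction. The 5 were reached without WT-DES replicate 1 and in a model of only the groups compared, with *Itgb3* and *Lamc3* added. Correction for length left 1 member in αERKO-veh against WT-veh. In αERKO-DES against αERKO-veh, 1 member, *Itgb8*, was called lower under a pseudocount of 0.1, sample weights, a replicate block, correction for length, and without WT-DES replicate 1, WT-DES replicate 2, αERKO-veh replicate 1 or αERKO-DES replicate 4. Quantile normalisation reversed *Itga10*, to −0.00286 in WT-DES against WT-veh, 0.0652 in αERKO-DES against WT-DES and −0.131 for the interaction, and the cause was not tested. Rescaling to equal totals with the 20 most abundant genes set aside moved the median log2 change of all genes to 0.37 in WT-DES against WT-veh, with 6745 genes higher and 1831 lower against 4613 and 3815, and the members to 30 higher and 1 lower. The same rescaling gave, over all genes, 1453 higher and 122 lower in αERKO-veh against WT-veh (719 and 420 as deposited), 2031 and 6378 in αERKO-DES against WT-DES (3797 and 4740), 212 and 197 in αERKO-DES against WT-veh (193 and 315), and 7118 and 1969 for the interaction (4729 and 4296). The corresponding median was 0.11 in αERKO-veh against WT-veh, where 9 members were called, −0.32 in αERKO-DES against WT-DES and 0.50 for the interaction. In αERKO-DES against WT-veh, *Lama3* was lost when any of 12 samples was left out. The interaction had no value in a model of only the groups compared. Ratios and shares moved by more than 1 SD in 30 of 144 cases under quantile normalisation and 12 of 144 after the length correction. With a pseudocount of 0.1, ratios moved in 5 cases and stayed in 67. Replicate numbers did not pair the samples: the 24 same-numbered pairs correlated at −0.21 to 0.28, 3 of them above 0.1, and 3 of 16 samples correlated best with their own number. With the replicate block the members called were 29, 6, 1, 25 and 2 in the order above and 25 for the interaction. The FPKM values do not give fragment counts, so the counting error of members near 1 FPKM or below, such as *Itgad* and *Itgb8*, is not known.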
